A study of Mus musculus with 8 samples.

Results

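The nuclear genes of the mitochondrial respiratory chain were examined in splenic donor T cells on day 6 after hematopoietic cell transplantation (HCT). The members were taken by name from the deposited gene rows. A row was a member if its symbol began with Nduf (complex I), was Sdha to Sdhd (complex II), began with Uqcr (complex III), began with Cox4 to Cox8 (complex IV) or began with Atp5 (complex V, the ATP synthase). These patterns took 95 of 25078 gene rows, 48 for complex I, 4 for complex II, 8 for complex III, 18 for complex IV and 17 for complex V. The Nduf rows included 8 Ndufaf genes, which encode assembly factors and not subunits. The subunits encoded by mitochondrial DNA were not analysed here.

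Lethally irradiated BALB/c recipients, WT in the titles, were given T cell-depleted bone marrow from WT C57BL/6 donors. In addition they were given CD90.2+ T cells of a C57BL/6 donor that was either WT or STAT3-/-. In the STAT3-/- donors (STAT3KO in the labels), Cre driven by the Cd4 promoter deletes the floxed Stat3 segment, which acts in both CD4 and CD8 T cells because developing T cells pass through a CD4+CD8+ stage. Donor CD4+ and CD8+ T cells were sorted apart, and cells of several recipients were pooled for each library, so a replicate is a pool and not an animal. The 8 libraries were 2 replicates of each of 4 groups, named WT or STAT3KO after the donor and CD4 or CD8 after the sorted cell. The ages of the animals were not given in the sources used here.

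In mitochondria, complex I (NADH dehydrogenase) and complex II (succinate dehydrogenase, also an enzyme of the citric acid cycle) pass electrons to coenzyme Q. Complex III passes them on to cytochrome c and complex IV (cytochrome c oxidase) to oxygen, while complexes I, III and IV pump protons across the inner membrane. Complex V lets the protons flow back and makes ATP. Activated T cells rely on glycolysis for rapid growth and on oxidative phosphorylation for survival and memory. STAT3 is known as a transcription factor downstream of cytokine receptors, and a part of the protein has also been described in mitochondria.

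Library totals lay between 20171396 and 23282757 counts. Stat3 itself checked the labels: it had 436 and 428 CPM (reads of the gene over the TMM-scaled size of the library) in the WT CD4 pair, 138 and 141 CPM in the STAT3KO CD4 pair, 431 and 436 CPM in the WT CD8 pair, and 120 and 143 CPM in the STAT3KO CD8 pair. The CD4 markers (Cd4 and Cd40lg) summed to between 1502 and 1707 CPM in the CD4 libraries and to at most 10.9 CPM in the CD8 libraries. The CD8 markers (Cd8a and Cd8b1) summed to between 1799 and 2031 CPM in the CD8 libraries and to at most 52.1 CPM in the CD4 libraries. Of the markers of other cells, the 5 B cell genes summed to 93.2 to 107 CPM in WT CD4, 151 to 171 CPM in STAT3KO CD4 and at most 55.3 CPM in CD8 libraries, and the 6 macrophage and monocyte genes to 18.7 to 117 CPM. Only 2 of the 5 B cell genes passed the filter on low counts. The 6 genes of neutrophils and myeloid progenitors summed to at most 20.4 CPM, the 3 NK cell genes to at most 26.5 CPM and the 6 erythroid genes to at most 7.53 CPM. In these bulk samples, fewer cells of a type and less RNA per cell cannot be told apart.

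The respiratory chain genes were expressed at high levels in all 4 groups. Of the 95 members, 85 passed the filter on low counts and were tested, which was 44 of 48 for complex I, 4 of 4 for complex II, 8 of 8 for complex III, 12 of 18 for complex IV and 17 of 17 for complex V. Levels of different genes were compared as RPKM, which divides the reads by exon length, as the mean over the 8 libraries. The median RPKM was 47.2 for complex I (71.4 without the Ndufaf genes), 101 for complex II, 103 for complex III, 140 for complex IV and 111 for complex V, against 9.91 for the 12428 genes tested. More than 100 RPKM was reached by 12 tested members of complex I, 2 of complex II, 4 of complex III, 9 of complex IV and 12 of complex V, while 5.28% of all tested genes did so.

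**Figure D1:**
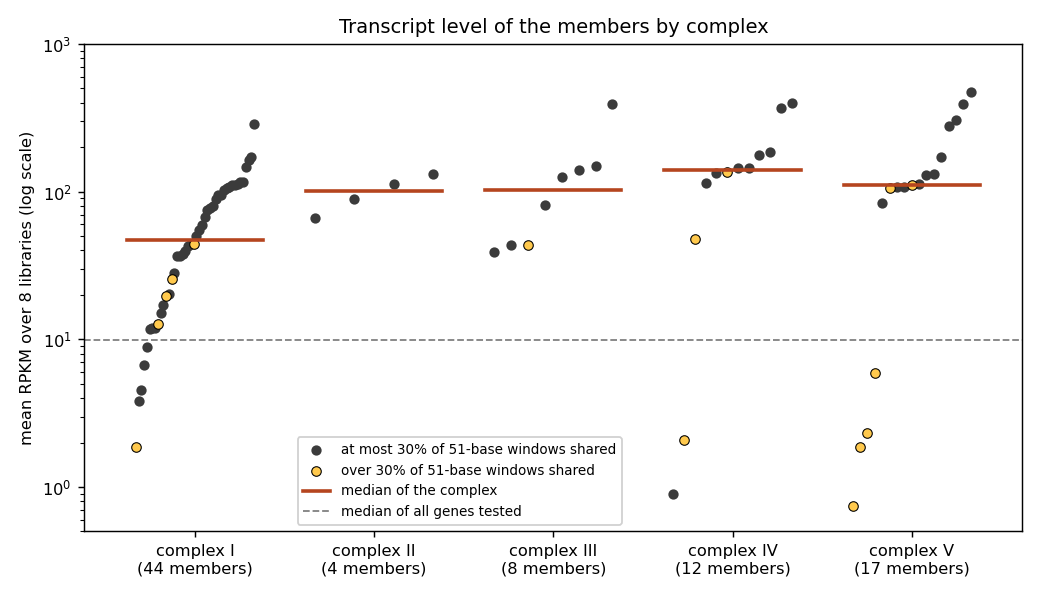
Mean RPKM over the 8 libraries (log scale) of the 85 tested members, each a point, by complex, with the median of the complex as a bar and the median of all tested genes as a dashed line. Points in yellow share more than 30% of their 51-base windows with other genes. Complex medians lie between 47.2 and 140 RPKM, and the lowest points of complexes IV and V lie more than 10 times below their medians.

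In complex I, Ndufa4 had the highest level (286 RPKM), followed by Ndufa3 (172) and Ndufa6 (165 RPKM). All are small accessory subunits, and the protein of Ndufa4 is now assigned to complex IV. Of the catalytic core, Ndufs1 had 49.8 RPKM and Ndufv1, which binds NADH, had 55.2 RPKM. In complex II, levels were 132 RPKM for Sdhb (the iron-sulphur subunit), 113 RPKM for Sdhd, 89.0 RPKM for Sdha (the flavoprotein) and 66.4 RPKM for Sdhc. In complex III, Uqcrh (the hinge protein) had 391 RPKM, Uqcr10 149 and the core protein Uqcrc2 140 RPKM, while Uqcrfs1 (the Rieske iron-sulphur protein) had 125, Uqcrc1 81.1 and Uqcrq 39.3 RPKM. In complex IV, Cox4i1 led with 399 RPKM, before Cox6b1 (366) and Cox6a1 (187 RPKM). In complex V, the catalytic beta subunit Atp5b had 470 RPKM, the highest level of any member, and the alpha subunit Atp5a1 had 391 and the epsilon subunit Atp5e 306 RPKM.

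Several subunits have tissue isoforms, and in these T cells 1 isoform of most sets carried nearly all the reads. Cox7a2 and its relative Cox7a2l were both abundant, with values given further below. Cox4i2 (a lung isoform) had at most 1 count in a library, against at least 5625 counts of Cox4i1. Of the heart and muscle isoforms, Cox6a2 had at most 2 counts, Cox7a1 between 1 and 13 counts, and Cox8b 0 counts in every library, while the 4 striated muscle markers summed to at most 0.800 CPM. The testis isoforms Cox7b2 and Cox8c had 0 counts in every library. Cox6b2, also a testis isoform, had between 5 and 20 counts and 0.890 RPKM, against 366 RPKM for Cox6b1. Ndufa4l2, known for its induction under low oxygen, had 0 counts in every library, as did Ndufb4c, and Ndufa11b had between 4 and 11 counts. A count of 0 allows up to 3 counts, or between 0.13 and 0.15 CPM depending on the library. These limits cover counting error only. The c ring of the ATP synthase is encoded by Atp5g1, Atp5g2 and Atp5g3, whose mature proteins are the same. Atp5g3 had 277 RPKM, Atp5g1 2.31 RPKM and Atp5g2 0.739 RPKM. Atp5g1 and Atp5g2 share much of their sequence with other genes, as given below, so their low values are not read as low expression.

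The low values of some members cannot be read as low expression. Reads were 51 bases long, and a read that fits several places in the genome may not have been counted for any of them. For 93 members with a GENCODE transcript, the share of 51-base windows that occur in a transcript of another gene, pseudogenes included, was computed. It was over 30% for 16 members, whose median level was 16.1 RPKM, against 89.0 RPKM for the other 77. Over the 85 tested members its Spearman correlation with the level was -0.23, given as a description. The share can include windows of a gene that overlaps the member at the same place, where a read need not fit several places. Of the 16, Ndufb6 and Cox5b shared 0% and Cox5a 2.86% of windows with pseudogenes, but Atp5g1 56.0%. The share is therefore no measure of the reads lost. The highest shares were in Atp5l (84.8%, 1.88 RPKM), Atp5g1 (56.0%), Atp5h (50.1%, 111 RPKM), Cox7c (48.0%, 2.06 RPKM) and Atp5g2 (46.3%). Ndufs5, a ubiquitous subunit with 40.8% of windows shared, had 0 counts in every library. Ndufab1, the mitochondrial acyl carrier protein, shared 30.9% of its windows and had 1.86 RPKM. By contrast, Ndufa4l2 and the Cox isoforms of other tissues named above shared at most 3.17% of their windows. The pseudogenes are retained copies elsewhere in the genome, and the part of shared windows in each low value was not tested.

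The spread between replicates differed between groups and was shared by most members. In WT CD4, replicate 2 had the higher CPM for 76 of 85 members (median log2 ratio 0.36, against -0.021 over all tested genes). In STAT3KO CD4 this held for 72 of 85 members (median 0.23), in WT CD8 for 64 (median 0.14) and in STAT3KO CD8 for 44 of 85 (median 0.0039). All 5 complexes had a positive median in each of the first 3 groups. Members were short, with a median exon length of 795 bases against 2988 bases over all tested genes. The Spearman correlation of the replicate ratio with exon length over the 85 members, which share the same libraries, was -0.40, -0.33, -0.35 and -0.027 in the groups in that order, given as a description. The part of transcript length in these differences was not tested. The running numbers in the titles fall into 2 runs, which go with replicate 1 and replicate 2 in all 4 groups, and no label says what they mark. A fit with the replicate number as a block is therefore given beside each comparison whose calls it moves.

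**Figure D2:**
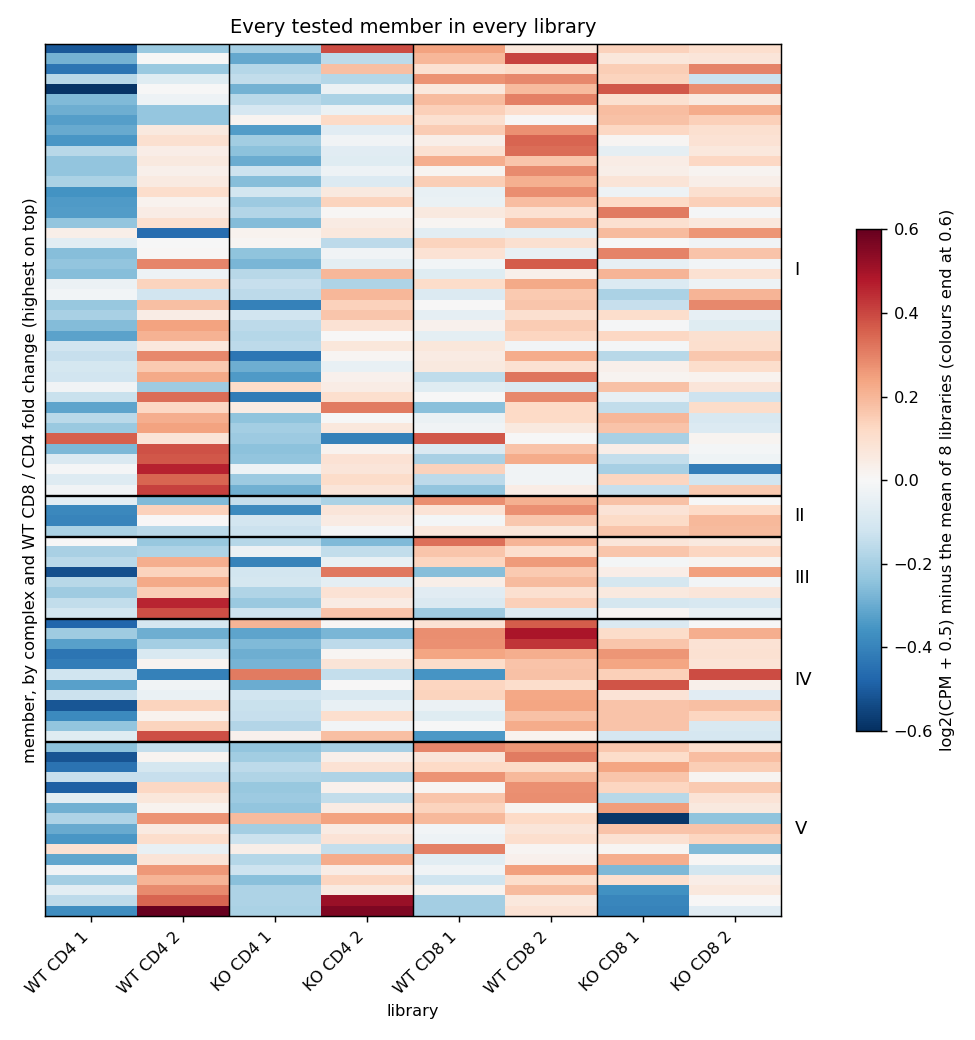
Deviation of log2(CPM + 0.5) of each of the 85 tested members (rows, by complex and then by fold change between WT CD8 and WT CD4 T cells) from its own mean over the 8 libraries (columns). For most members WT CD4 replicate 1 and STAT3KO CD4 replicate 1 are blue (below the mean) and the CD8 libraries red or pale, with some exceptions.

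STAT3KO against WT in CD4 T cells asks which of these genes differ without STAT3 in the CD4 compartment. It called 0 of 85 members with edgeR (adjusted p under 0.05), where 11.6% of the 12428 genes tested were called. DESeq2 called 0 members too, and 3 members had an unadjusted p under 0.05 with edgeR. These 3 were in complex I: the subunit Ndufa9 and the assembly factors Ndufaf5 and Ndufaf6. Ndufa9, which sits near the coenzyme Q site, had 78.3 and 91.1 CPM in the WT pair against 94.4 and 120 CPM in the STAT3KO pair (edgeR gave a log2 fold change of 0.34 and adjusted p 0.161). Ndufaf5 had 9.73 and 10.4 CPM in the WT pair against 12.5 and 13.5 CPM in the STAT3KO pair (edgeR gave a log2 fold change of 0.37 and adjusted p 0.119), the smallest adjusted p of any member. Ndufaf6 had 5.39 and 4.35 CPM in the WT pair against 3.45 and 2.97 CPM in the STAT3KO pair (edgeR gave a log2 fold change of -0.60 and adjusted p 0.169). For these 3 genes the groups did not overlap. With the replicate block, edgeR called 3 of 85 members, Ndufa3 and Ndufa9 higher and Ndufaf4 lower in STAT3KO, and 30.1% of all tested genes.

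For most members the fit set a bound on a change in CD4 T cells. The 95% confidence interval of the log2 fold change lay within -1 and 1 for 78 of 85 members, and its median half-width was 0.38. The fit shares the spread of a gene over the 4 groups, while replicates of members lay further apart in the CD4 groups. These intervals may therefore be too narrow for CD4 T cells. Fold changes were small beside those of other genes: the median absolute log2 fold change was 0.11 over members and 0.25 over all tested genes, and 4.71% of members but 27.3% of all genes exceeded 0.5 in size. The WT and STAT3KO libraries did not overlap for 12 of 85 members (14.1%), against 53.5% of all tested genes. Replicate 2 lay above replicate 1 for 76 of 85 members in WT CD4 and 72 of 85 in STAT3KO CD4. The part of this shared spread in the share of 14.1% was not tested. The signed median was -0.019 over the members, and by complex it was -0.042 (I), 0.052 (II), -0.12 (III), 0.060 (IV) and 0.041 (V). It followed single libraries: without WT CD4 replicate 1 the median over members was -0.16, and without WT CD4 replicate 2 it was 0.12. The B cell marker sum given above, of which 2 of 5 genes passed the filter, differed between these groups, and its part in the values was not tested.

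In CD8 T cells, STAT3KO against WT called 0 of 85 members with edgeR, where 2.07% of all tested genes were called. DESeq2 called 0 members as well, and 1 member, Ndufb8, had an unadjusted p under 0.05 with edgeR. Ndufb8, an accessory subunit of the membrane arm of complex I, had 103 and 105 CPM in the WT pair against 94.0 and 78.2 CPM in the STAT3KO pair (edgeR gave a log2 fold change of -0.27 and adjusted p 0.236). The 95% confidence interval lay within -1 and 1 for 79 of 85 members. The groups did not overlap for 40 of 85 members (47.1%, against 49.7% of all tested genes), of which 28 were lower and 12 higher in STAT3KO, while 24.8% of all tested genes were lower and 24.9% higher. The median log2 fold change was -0.040 over members and -0.0071 over all tested genes, and over members it was 0.032 with WT CD8 replicate 2 left out and -0.12 with replicate 1 of that group left out. With the replicate block, edgeR called 3 of 85 members, all lower in STAT3KO and all of complex V (Atp5d, Atp5e and Atp5g3), and 18.2% of all tested genes.

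Complex V had the lowest median of the 5 complexes in this comparison, -0.14, with 11 of 17 members below 0. Its most abundant members are examples. Atp5b had 1084 and 1061 CPM in the WT CD8 pair against 989 and 948 CPM in the STAT3KO CD8 pair (edgeR gave a log2 fold change of -0.15 and adjusted p 0.426). Atp5a1 had 1149 and 1090 CPM in the WT pair against 1070 and 965 CPM in the STAT3KO pair (edgeR gave a log2 fold change of -0.14 and adjusted p 0.476). For both genes the STAT3KO libraries lay below the WT libraries without passing the test. Atp5e had 125 and 151 CPM in the WT pair against 105 and 118 CPM in the STAT3KO pair (edgeR gave a log2 fold change of -0.31 and adjusted p 0.291). Of the 17 members, 6 lay lower and 2 (Atp5j and Atp5pb) lay higher in both STAT3KO than in both WT libraries, in all 47.1% of the complex against the 49.7% of all tested genes given above.

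**Figure D3:**
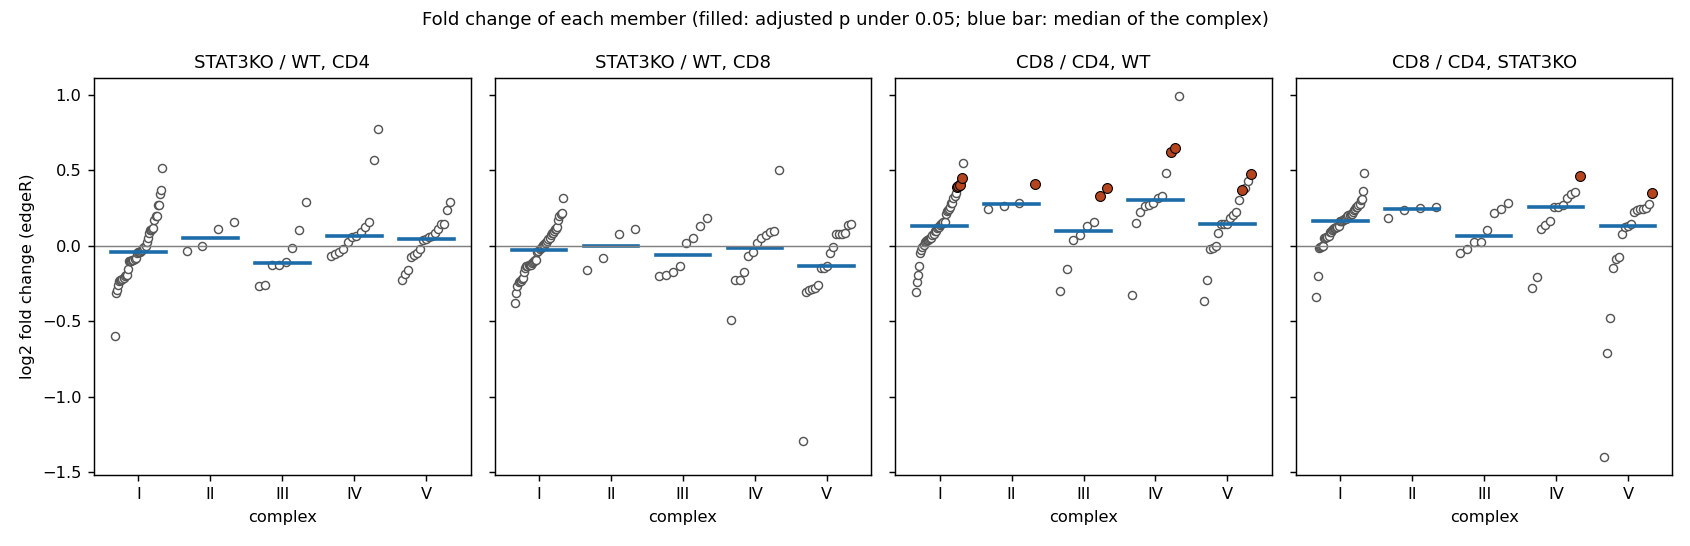
Log2 fold change of each tested member by complex in the 4 comparisons of 2 groups, with calls (edgeR adjusted p under 0.05) filled and the median of the complex as a bar. Filled points occur in CD8 against CD4 T cells alone, 11 in WT and 2 in STAT3KO, and all lie above 0.

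The STAT3KO effects in CD8 and CD4 T cells were compared with each other by a test of the interaction. It called 0 of 85 members and 0% of the 12428 genes tested with edgeR, with 0 members and 982 genes at an unadjusted p under 0.05. DESeq2 called 0 members and 175 genes. The smallest edgeR adjusted p of a member was 0.690. The 95% interval of the difference lay within -1 and 1 for 76 of 85 members.

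CD8 T cells were then compared with CD4 T cells of the same genotype, which sets the size of the effects above beside that of a lineage difference. In WT T cells, 11 of 85 members were called higher in CD8 (12.9%) and 0 lower with edgeR. Of all tested genes 12.2% were called higher, 11.6% lower and 23.8% in either direction, so that the share of members called higher was close to that of all genes, while none was called lower. In 70 of 85 members the fold change lay above 0 and the median was 0.15, against 0.0011 over all tested genes. Both CD8 libraries lay above both CD4 libraries for 30 of 85 members (35.3%, against 29.2% of all tested genes), and both below for 0 members. The fit without WT CD4 replicate 1 gave a median of 0.020 and 5 calls, that without WT CD4 replicate 2 a median of 0.32 and 10 calls, that without WT CD8 replicate 1 gave 2 calls, and that without WT CD8 replicate 2 gave 3 calls. With the replicate block, edgeR called 26 members higher and 2 (Cox7a2l and Ndufaf4) lower, and 42.1% of all tested genes.

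The largest called differences were in complex IV, where 2 of 12 tested members were called higher (16.7%, against 12.2% of all tested genes). Cox5a (chromosome 9, 57521232 to 57532426, plus strand, mm10), an accessory subunit on the matrix side, had 80.7 and 76.4 CPM in the WT CD4 pair against 114 and 132 CPM in the WT CD8 pair (edgeR gave a log2 fold change of 0.65 with SE 0.11 and adjusted p 0.00413). Cox6a1 (chromosome 5, 115345623 to 115348958, minus strand), the isoform of subunit VIa used outside heart and muscle, had 83.8 and 91.1 CPM in the WT CD4 pair against 127 and 142 CPM in the WT CD8 pair (edgeR gave a log2 fold change of 0.62 with SE 0.10 and adjusted p 0.00427). Both WT CD8 libraries lay well above both WT CD4 libraries for these genes. They were called in each of the 13 alternative fits. Of the exon bases of Cox5a, 12.8% overlap a gene annotated on the other strand (Gm26631), and 31.4% of its windows are shared. The other 10 tested members of complex IV were not called. They include Cox4i1 with 281 and 298 CPM in the WT CD4 pair against 337 and 360 CPM in the WT CD8 pair (edgeR gave a log2 fold change of 0.27 and adjusted p 0.109), whose groups did not overlap.

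In complex V, 2 of 17 members were called higher (11.8%, against 12.2% of all tested genes), both of them subunits of the catalytic hexamer. Atp5b (chromosome 10, 128083307 to 128090388, plus strand) was counted at 744 and 800 CPM in the WT CD4 pair against 1084 and 1061 CPM in the WT CD8 pair (edgeR gave a log2 fold change of 0.47 with SE 0.088 and adjusted p 0.00726). Atp5a1 had 866 and 868 CPM in the WT CD4 pair against 1149 and 1090 CPM in the WT CD8 pair (edgeR gave a log2 fold change of 0.37 with SE 0.091 and adjusted p 0.0235). These pairs are far apart beside the differences between replicates. The other 15 members of complex V were not called. The median of the complex, called genes included, was 0.14, less than the fold change of Atp5b or of Atp5a1. Atp5a1 kept its call in 5 and Atp5b in 12 of the 13 alternative fits.

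In complex I, 4 of 44 tested members were called higher (9.09%, against 12.2% of all tested genes), 3 subunits and 1 assembly factor. Ndufa10 (chromosome 1, 92439719 to 92473758, minus strand), an accessory subunit of the membrane arm, had 93.3 and 114 CPM in the WT CD4 pair against 131 and 151 CPM in the WT CD8 pair (edgeR gave a log2 fold change of 0.44 with SE 0.13 and adjusted p 0.0399). Ndufb8 (chromosome 19, 44548571 to 44555442, minus strand) was counted at 76.3 and 81.3 CPM in the WT CD4 pair against 103 and 105 CPM in the WT CD8 pair (edgeR gave a log2 fold change of 0.40 with SE 0.11 and adjusted p 0.0370). Ndufv1 (chromosome 19, 4007499 to 4012755, minus strand) was counted at 73.9 and 87.1 CPM in the WT CD4 pair against 102 and 110 CPM in the WT CD8 pair (edgeR gave a log2 fold change of 0.39 with SE 0.11 and adjusted p 0.0353). The assembly factor Ndufaf7 (chromosome 17, 78937135 to 78948052, plus strand), a methyltransferase, had 22.4 and 23.3 CPM in the WT CD4 pair against 30.4 and 29.5 CPM in the WT CD8 pair (edgeR gave a log2 fold change of 0.39 with SE 0.10 and adjusted p 0.0274). No library of WT CD4 reached a WT CD8 library in any of these 4 genes. Each kept its call in 7 or 8 of the 13 alternative fits. The core subunit Ndufs1 was not called, with a log2 fold change of 0.044 (edgeR adjusted p 0.837).

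Called higher were 1 of 4 members of complex II and 2 of 8 of complex III (25% each, against 12.2% of all tested genes). In complex II, Sdhc, a membrane anchor (chromosome 1, 171129157 to 171150603, minus strand), was counted at 75.0 and 65.2 CPM in the WT CD4 pair against 95.3 and 91.1 CPM in the WT CD8 pair (edgeR gave a log2 fold change of 0.41 with SE 0.11 and adjusted p 0.0343). The other 3 subunits had fold changes of 0.24 to 0.28 and were not called, among them Sdha with 224 and 229 CPM in the WT CD4 pair against 268 and 268 CPM in the WT CD8 pair (edgeR adjusted p 0.115). In complex III, Uqcrc1 (chromosome 9, 108936648 to 108949641, plus strand) was counted at 134 and 115 CPM in the WT CD4 pair against 169 and 155 CPM in the WT CD8 pair (edgeR gave a log2 fold change of 0.38 with SE 0.11 and adjusted p 0.0408). Uqcrfs1 (chromosome 13, 30540312 to 30545316, minus strand) was counted at 144 and 145 CPM in the WT CD4 pair against 186 and 178 CPM in the WT CD8 pair (edgeR gave a log2 fold change of 0.33 with SE 0.093 and adjusted p 0.0391). In Sdhc, Uqcrc1 and Uqcrfs1 the lower WT CD8 library lay above the higher WT CD4 library. Sdhc kept its call in 9, Uqcrc1 in 8 and Uqcrfs1 in 6 of the 13 alternative fits. The small subunit Uqcrh was not called, with 198 and 280 CPM in the WT CD4 pair against 184 and 203 CPM in the WT CD8 pair (edgeR gave a log2 fold change of -0.30 and adjusted p 0.265).

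**Figure D4:**
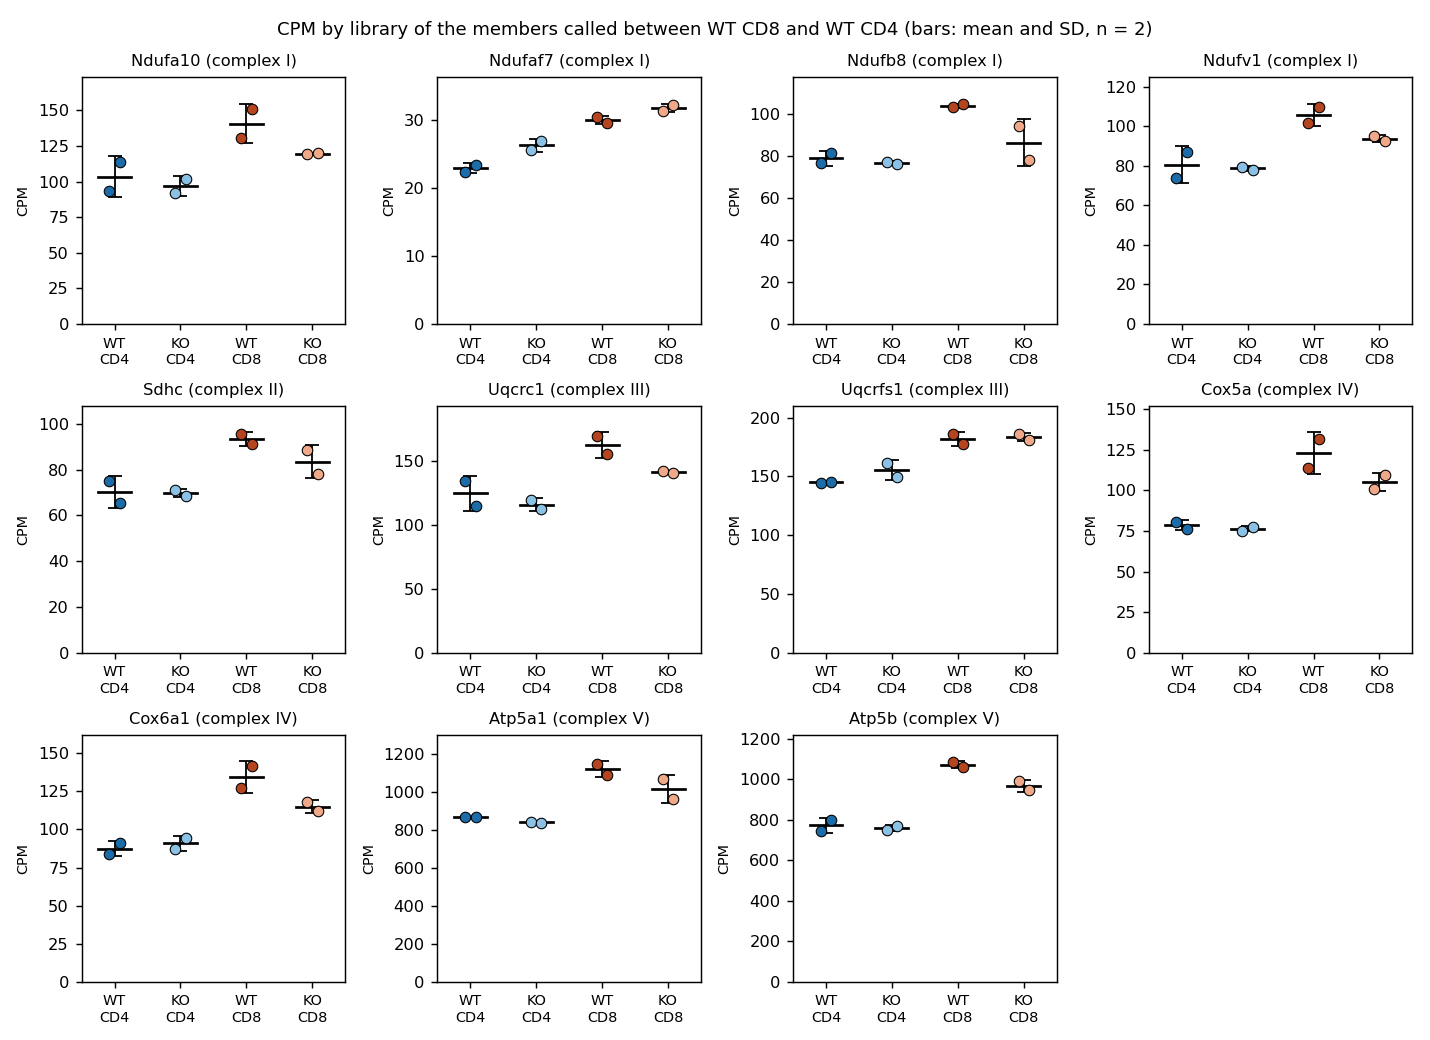
CPM in each of the 8 libraries (points) of the 11 members called between WT CD8 and WT CD4 T cells, with mean and SD (n = 2) as bars and each axis from 0. WT CD8 points lie above WT CD4 points in each panel, and so do STAT3KO CD8 over STAT3KO CD4 points, by the narrowest gap in Ndufb8.

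Without STAT3, the same comparison called 2 of 85 members higher in CD8 (2.35%) and 0 lower, where 5.84% of all tested genes were called higher and 12.5% in either direction. These were Cox5a, with 75.2 and 77.5 CPM in the STAT3KO CD4 pair against 101 and 109 CPM in the STAT3KO CD8 pair (edgeR gave a log2 fold change of 0.46 with SE 0.11 and adjusted p 0.0301), and Atp5b, with 750 and 770 CPM in the STAT3KO CD4 pair against 989 and 948 CPM in the STAT3KO CD8 pair (edgeR gave a log2 fold change of 0.35 with SE 0.088 and adjusted p 0.0407). Cox6a1 had 87.4 and 94.1 CPM in the STAT3KO CD4 pair against 118 and 112 CPM in the STAT3KO CD8 pair (edgeR gave a log2 fold change of 0.34 and adjusted p 0.0716). The fold change lay above 0 for 68 of 85 members, with a median of 0.16 against 0.0018 over all tested genes. Leaving out STAT3KO CD4 replicate 1 lowered this median to 0.060, and leaving out replicate 2 of that group raised it to 0.25. Both CD8 libraries lay above both CD4 libraries for 43 members, against 29.6% of all tested genes, and below for 4. The calls of both genes were lost when any 1 of the 4 STAT3KO libraries was left out. With the replicate block, edgeR called 12 members higher and 0 lower, and 29.7% of all tested genes. A difference between the genotypes in this comparison is the interaction tested above, which called 0 members.

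The upstream sequences of the 3 members with the highest called fold changes are shown because these genes rose together in CD8 T cells. Each is the 250 bases before the RefSeq start site (GRCm38.p6), 5′ to 3′ on the strand of the gene. Capitals mark matches, on either strand, to letters known for factors of respiratory chain promoters. These are GCGCANGCG for NRF1, CCGGAAG for ETS factors such as GABPA, and AANATGGCG for YY1. Matches to TTCNNNGAA, the letters of STAT proteins, were marked too.
Cox5a, chr9:57520982-57521231, plus strand: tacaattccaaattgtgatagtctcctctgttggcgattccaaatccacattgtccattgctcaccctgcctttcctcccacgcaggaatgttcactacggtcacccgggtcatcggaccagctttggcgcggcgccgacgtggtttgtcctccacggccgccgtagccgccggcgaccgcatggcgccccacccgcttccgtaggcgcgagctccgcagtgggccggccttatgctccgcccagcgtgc
Cox6a1, chr5:115348959-115349208, minus strand: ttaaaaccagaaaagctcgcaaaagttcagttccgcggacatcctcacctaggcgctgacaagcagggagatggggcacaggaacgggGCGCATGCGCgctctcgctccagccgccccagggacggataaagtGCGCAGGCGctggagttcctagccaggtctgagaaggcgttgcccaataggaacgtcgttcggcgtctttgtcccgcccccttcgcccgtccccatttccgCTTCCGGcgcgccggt
Atp5b, chr10:128083057-128083306, plus strand: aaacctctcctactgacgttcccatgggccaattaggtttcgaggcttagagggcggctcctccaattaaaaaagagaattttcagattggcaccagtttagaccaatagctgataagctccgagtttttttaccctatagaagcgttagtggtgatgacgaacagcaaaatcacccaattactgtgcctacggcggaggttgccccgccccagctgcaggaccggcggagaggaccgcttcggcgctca
The stretch of Cox6a1 held 3 matches to the NRF1 letters, which begin 162, 161 and 117 bases before the start site and of which the first 2 overlap on opposite strands, and 1 match to the ETS letters 16 bases before it. The stretches of Cox5a and Atp5b held no match to these letters.

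Over the 300-base windows of RefSeq (250 bases before to 50 after the start), which were found for 72 of the 85 tested members, the NRF1 letters occurred in 20 (27.8%) and the ETS letters in 18 (25%). In the windows of all 9836 tested genes with an entry the shares were 14.2% and 19.3%. The YY1 letters occurred in 9 members (12.5%, against 5.45% of tested genes), among them Atp5b, where the match lies outside the bases printed. The STAT letters occurred in 5 members (6.94%, against 6.98%): Atp5d, Atp5o, Atp5pb, Ndufa8 and Ndufb6. Of the 9 members called higher in WT CD8 that have a window, 2 held the NRF1 letters, 1 the ETS letters, 1 the YY1 letters and 0 the STAT letters. The 4 sets of letters can overlap each other, and a match is a match of letters and no measured binding.

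The reads of each complex were also summed over its members. Complex I summed to 2266 and 2883 CPM in the WT CD4 pair, 2324 and 2702 CPM in the STAT3KO CD4 pair, 2770 and 3043 CPM in the WT CD8 pair, and 2889 and 2799 CPM in the STAT3KO CD8 pair. Complex II summed to 519 and 597, 550 and 624, 658 and 695, and 685 and 693 CPM in the groups in that order. Complex III summed to 871 and 1073, 878 and 981, 977 and 1033, and 1000 and 997 CPM. In the CD4 groups replicate 1 was the lower library each time, and for complexes I and III this gap reached into the range of the CD8 libraries. Complex IV summed to 1043 and 1259, 1107 and 1242, 1325 and 1465, and 1390 and 1284 CPM, and complex V to 2793 and 3130, 2829 and 3021, 3668 and 3678, and 3498 and 3362 CPM. For complexes II, IV and V every CD8 library lay above every CD4 library of both genotypes.

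**Figure D5:**
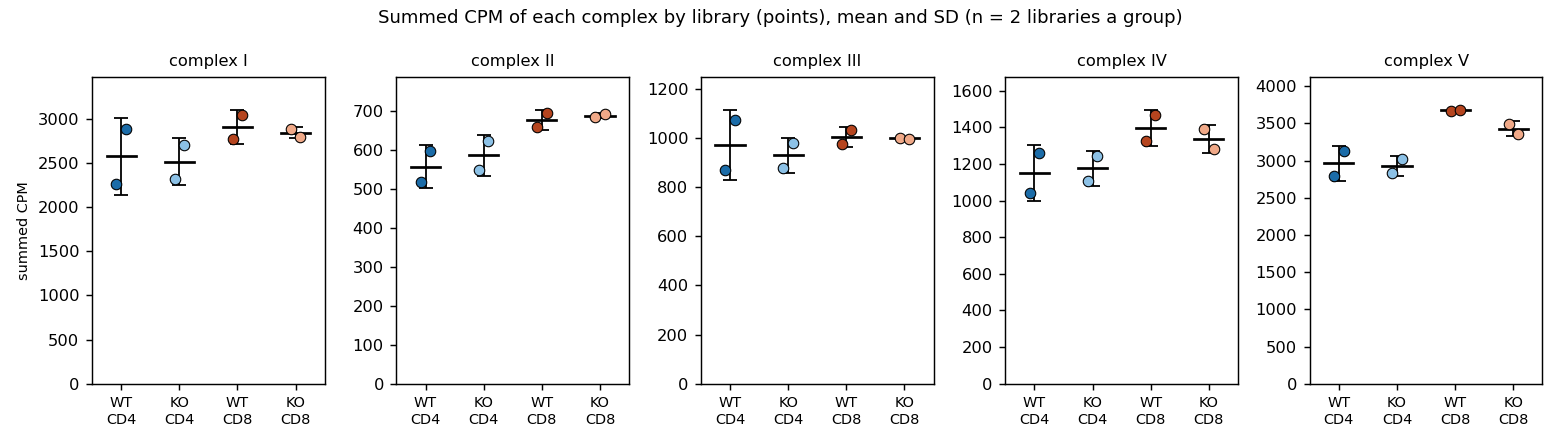
Summed CPM of the members of each complex in each library (points), with mean and SD (n = 2) as bars and each axis from 0. In complexes II, IV and V every CD8 library lies above every CD4 library, and in complexes I and III the groups overlap.

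STAT3KO against WT gave a log2 ratio of the sums between -0.059 (complex III) and 0.074 (complex II) in CD4 T cells, each smaller than the replicate SD on that scale (0.095 to 0.20). Leaving out 1 WT CD4 library turned the sign of each: complex I went from -0.20 without replicate 1 to 0.15 without replicate 2, complex II from -0.028 to 0.18, complex III from -0.21 to 0.091, complex IV from -0.10 to 0.17 and complex V from -0.099 to 0.066. In CD8 T cells the ratios lay between -0.061 (complex IV) and 0.025 (complex II) for complexes I to IV, again under the replicate SD. Complex V stood at -0.099 with a replicate SD of 0.029, and both STAT3KO libraries lay below both WT libraries. Without 1 library the ratio of complex V lay between -0.13 and -0.070, while those of complexes I to IV turned above and below 0 with WT CD8 replicate 1 or 2 left out. With 2 libraries a group, leaving 1 out cannot move a ratio by more than the replicate SD. These values are therefore no check of stability. CD8 against CD4 gave 0.31 for complex V in WT and 0.23 in STAT3KO T cells, 0.28 and 0.23 for complex II, 0.28 and 0.19 for complex IV, 0.18 and 0.18 for complex I and 0.055 and 0.11 for complex III. In WT, complex I had 0.010 without WT CD4 replicate 1 and 0.36 without replicate 2 of that group, complex III -0.094 and 0.21, complex IV 0.15 and 0.42, complex II 0.18 and 0.38, and complex V 0.23 and 0.39. Summed RPKM gave -0.050 for complex III in WT. In STAT3KO, complex I had 0.074 without STAT3KO CD4 replicate 1 and 0.29 without replicate 2 of that group, complex III 0.025 and 0.18, complex IV 0.10 and 0.27, complex II 0.14 and 0.32, and complex V 0.18 and 0.28. No test was run on the sums, which add up a chosen list of genes. A sum is dominated by its abundant members, and in complex V Atp5a1 and Atp5b alone gave the larger part of it.

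Isoforms and relatives were set side by side for the same comparison. Cox7a2 had 80.7 and 103 CPM in the WT CD4 pair against 129 and 127 CPM in the WT CD8 pair (edgeR gave a log2 fold change of 0.48 and adjusted p 0.0545). Its relative Cox7a2l had 126 and 173 CPM in the WT CD4 pair against 104 and 134 CPM in the WT CD8 pair (edgeR gave a log2 fold change of -0.33 and adjusted p 0.229). In STAT3KO T cells the fold changes were 0.32 for Cox7a2 and -0.21 for Cox7a2l. Neither was called without the replicate block, with which edgeR called Cox7a2 higher (adjusted p 0.00853) and Cox7a2l lower (adjusted p 0.0328) in WT CD8, and the difference between them was not tested. Cox7b had log2 fold changes of 0.33 and 0.25 in WT and STAT3KO T cells, Cox8a of 0.15 and 0.14, and Atp5g3 of 0.22 and 0.15, none called without the block.

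Other nuclear genes of the pathway were taken from lists of the electron carriers, assembly factors, coenzyme Q synthesis, control of mitochondrial gene expression, adenine nucleotide exchange, and import and cristae. Of the 42 assembly factors tested outside the patterns, 2 were called higher and 1 lower in STAT3KO CD4 T cells, where 11.6% of all tested genes were called. Cmc2, a factor of complex IV, had 13.7 and 14.8 CPM in the WT CD4 pair against 21.6 and 23.3 CPM in the STAT3KO CD4 pair (edgeR gave a log2 fold change of 0.65 with SE 0.12 and adjusted p 0.0131). Surf1, also of complex IV, had 49.2 and 49.0 CPM in the WT CD4 pair against 63.8 and 71.9 CPM in the STAT3KO CD4 pair (edgeR gave a log2 fold change of 0.47 with SE 0.10 and adjusted p 0.0284). Sco1, which brings copper to complex IV, fell: the WT CD4 pair had 35.8 and 30.4 CPM, against 15.7 and 17.6 CPM in the STAT3KO CD4 pair (edgeR gave a log2 fold change of -0.99 with SE 0.15 and adjusted p 0.00646). In CD8 T cells, 1 of the 42 was called, against 2.07% of all tested genes: Cox10, which makes the haem of complex IV, fell: the WT pair had 53.0 and 56.4 CPM, against 35.6 and 38.1 CPM in the STAT3KO pair (edgeR gave a log2 fold change of -0.57 with SE 0.11 and adjusted p 0.0464). In each of these 4 genes both STAT3KO libraries lay on the same side of both WT libraries. In CD8 against CD4, 4 of the 42 were called higher and 3 lower in WT, and 1 higher and 1 lower in STAT3KO T cells, against 23.8% and 12.5% of all tested genes in either direction.

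Cyc1, the haem subunit of complex III that the name patterns miss, had 58.6 and 50.2 CPM in the WT CD4 pair against 80.1 and 68.7 CPM in the WT CD8 pair (edgeR gave a log2 fold change of 0.45 with SE 0.12 and adjusted p 0.0348). In STAT3KO CD8 libraries it had 62.8 and 57.7 CPM (log2 fold change to WT CD8 -0.31, edgeR adjusted p 0.232). Cytochrome c itself (Cycs) had between 37 and 96 counts in a library and was not called. Its shared windows were not computed, so these counts are not read as low expression. Of 21 tested genes that control mitochondrial gene expression, 1 was called in STAT3KO CD4 T cells. Of all tested genes, 11.6% were called in that comparison and 2.07% in the one of CD8 T cells. It was Tfb1m, a methyltransferase of mitochondrial ribosomal RNA, which rose, with 6.54 and 6.47 CPM in the WT pair against 11.6 and 13.1 CPM in the STAT3KO pair (edgeR gave a log2 fold change of 0.93 with SE 0.17 and adjusted p 0.0150), and 0 of the 21 were called in STAT3KO CD8 T cells, where Tfb1m had a log2 fold change of 0.67 (edgeR adjusted p 0.0876).

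The known regulators of respiratory chain genes were not called in either STAT3KO comparison. Tfam, which packages mitochondrial DNA, had 105 and 105 CPM in the WT CD4 pair, 111 and 117 CPM in the STAT3KO CD4 pair, 117 and 107 CPM in the WT CD8 pair and 119 and 123 CPM in the STAT3KO CD8 pair. Nrf1 had between 69.3 and 84.3 CPM over the 8 libraries, with a STAT3KO log2 fold change of 0.080 in CD4 T cells and of 0.025 in CD8 T cells. Gabpa had 132 and 128 CPM in the WT CD4 pair against 159 and 150 CPM in the STAT3KO CD4 pair (edgeR gave a log2 fold change of 0.25 and adjusted p 0.183). The coactivator Pprc1 had 53.8 and 40.5 CPM in the WT CD4 pair against 34.1 and 26.5 CPM in the STAT3KO CD4 pair (edgeR gave a log2 fold change of -0.64 and adjusted p 0.0612), and 38.3 and 35.2 CPM in the WT CD8 pair against 27.3 and 23.2 CPM in the STAT3KO CD8 pair (edgeR gave a log2 fold change of -0.54 and adjusted p 0.160). Its relative Ppargc1b had a log2 fold change of -0.41 (edgeR adjusted p 0.243) in CD4 T cells, and of -0.52 (edgeR adjusted p 0.228) in CD8 T cells. Both STAT3KO libraries lay below both WT libraries of the same cell type for Pprc1 and Ppargc1b, without passing the test. Of the 12428 tested genes, called or not, 3112 in CD4 and 3088 in CD8 T cells lay lower in this way.

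Of 7 tested genes of the ATP synthase inhibitor and adenine nucleotide exchange, 0 were called in either STAT3KO comparison (11.6% of all tested genes in CD4 and 2.07% in CD8 T cells). In this list, 1 was called higher in WT CD8 than in WT CD4, against 12.2% of all tested genes. It was Atpif1, the inhibitor of complex V, with 41.8 and 52.9 CPM in the WT CD4 pair against 68.6 and 72.1 CPM in the WT CD8 pair (edgeR gave a log2 fold change of 0.57 with SE 0.15 and adjusted p 0.0282). In STAT3KO CD4 libraries it had 56.9 and 67.0 CPM (log2 fold change to WT CD4 0.39, edgeR adjusted p 0.140). Of 13 tested genes of coenzyme Q synthesis, 0 were called in either STAT3KO comparison, 1 lower (Coq8a) in WT CD8 against CD4 and 1 higher (Pdss1) in STAT3KO CD8 against CD4. Of all tested genes, 11.6% were called lower in the former and 5.84% higher in the latter of these lineage comparisons. Of 22 genes of import, chaperones and cristae, 1 was called in STAT3KO CD4 T cells, against 11.6% of all tested genes. It was Tomm40, the channel of the outer membrane, which fell: the WT pair had 39.8 and 38.6 CPM, against 27.0 and 25.6 CPM in the STAT3KO pair (edgeR gave a log2 fold change of -0.57 with SE 0.13 and adjusted p 0.0261). In CD8 T cells Tomm40 had a log2 fold change of -0.63 (edgeR adjusted p 0.0525) and 0 of the 22 were called.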

How the data were processed

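Messenger RNA of 8 libraries of sorted donor T cells was sequenced, 2 for each of 4 groups taken from the titles and the cell type and genotype fields of the labels. The authors aligned single-end 51-base reads to mm10 with STAR and counted them per RefSeq gene with HTSeq, and deposited a table of raw counts and a table of RPKM values, both with 25078 gene rows. The RPKM values fit library sizes of 0.989 to 1.05 times the column totals of the counts. The paper's methods and the labels name different library kits, the growth and treatment fields of the labels describe another cell system and were not used, and the strand setting of the counting is not given in the sources used here. For genes that overlap another gene on the other strand, the reads of both may therefore be mixed.

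The low-count filter filterByExpr (minimum count 10) left 12428 genes, whose counts were scaled by TMM and fitted in edgeR 4.0.16 (R 4.3.3) with a mean per group over all 8 libraries. The quasi-likelihood test was two-sided, with Benjamini-Hochberg adjusted p under 0.05 over all genes tested, and intervals are 95% confidence intervals. CPM are TMM-scaled. The labels do not say whether the replicates of a group are separate experiments, so p-values measure the spread between these libraries, which may be technical. The test was checked on simulated counts. Alternatives were DESeq2 1.42.0, RLE or total-count scaling, no filter or a minimum count of 30, a replicate block, only the libraries compared, each library left out, and limma 3.58.1 on log2(RPKM + 1) and log2(RPKM + 0.1).

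Members, lists, markers and the rule for named genes were chosen with earlier results of these data known. The rule names called members by fold change, the most and least abundant members of each complex, core subunits, isoform sets, members that failed the filter and, of the lists, the called genes and 8 fixed genes (Cyc1, Cycs, Tfam, Nrf1, Gabpa, Ppargc1b, Pprc1 and Atpif1). Members named because of an unadjusted p under 0.05, matching letters, or as examples of complex V were chosen after their values were seen. Shared windows and exon overlaps were computed from GENCODE M21 (GRCm38), and promoter windows are those of RefSeq (GRCm38.p6). A result for 1 member named by the rule is not reported here.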

Additional observations from a re-analysis of the deposited data

How the results depend on the processing

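Where 0 members were called, the count stayed at 0 under most alternatives. In the comparisons of CD8 with CD4 T cells, many alternatives in WT and most in STAT3KO moved the count by more than 1.5 times or to 0. STAT3KO against WT called 0 members in CD4 and in CD8 T cells under each alternative without the replicate block, and the interaction called 0 members in each fit. The replicate block called 3 members in CD4 (Ndufa3, Ndufa9 and Ndufaf4), 3 in CD8 (Atp5d, Atp5e and Atp5g3), 28 in WT CD8 against CD4 and 12 in STAT3KO CD8 against CD4 T cells, while it raised the share of all genes called to 30.1%, 18.2%, 42.1% and 29.7%. Same-numbered libraries also share a run of title numbers, whose meaning is not stated. Deviations of same-numbered libraries correlated at 0.42 to 0.67 over all tested genes. Over the 85 tested members the correlation was 0.63 for WT CD4 with STAT3KO CD4 and 0.18 to 0.40 for the other pairs of groups. In WT CD8 against CD4, 11 calls became 6 without a filter on low counts, 3 with only the libraries compared, and 2 to 10 when 1 library was left out. In STAT3KO CD8 against CD4, 2 calls became 1 with total counts, without a filter and in both limma fits, 4 with DESeq2, and 0 without any 1 library (0 to 0). No called gene changed sign. The causes of these moves were not tested.

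Of the summed levels, values moved by more than the replicate SD as follows. With total counts, STAT3KO against WT in CD8 gave log2 ratios of -0.016 for complex II, -0.051 for complex III and -0.14 for complex V, and the sum of RPKM gave -0.016 for complex II. The median over members gave -0.060 for complex III and -0.14 for complex V in that comparison, and 0.14 in WT and 0.13 in STAT3KO CD8 against CD4 for complex V. Leaving out libraries for the sums was added after seeing the data. With 2 libraries a group this cannot move a ratio by more than that SD, so it is no check of stability, and the values are given beside the sums: in STAT3KO against WT in CD4 T cells they turned the sign of every complex. An uncalled member is bounded only by its own interval (median half-width 0.38 in CD4 T cells), which uses a spread shared over the 4 groups.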
